A study of Homo sapiens with 8 samples.

Results

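The genes described here are the numbered ZNF genes of human chromosome 19 that Affymetrix U133 Plus 2.0 arrays measured in H1 and H9 human embryonic stem cells. A member is a gene whose symbol is ZNF, a number and at most 1 letter, that lies on chromosome 19 in the gene annotation, and that has a probe set annotated to this symbol alone. These rules gave 220 of the 19775 genes with such a probe set, read by 425 probe sets, and each gene is represented by its brightest. The gene table holds 263 such symbols on chromosome 19, so 43 had no probe set of their own and are not analysed here.

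H1 and H9 are established lines of human embryonic stem cells, and each was hybridised in 2 states with 2 arrays per state. Undifferentiated cells grew in mTeSR1, a defined medium for pluripotent cells. Embryoid bodies (EB), floating clumps of cells leaving the pluripotent state, were kept for 3 days on low-attachment plastic in hESGM lacking bFGF, with 10 µM of the kinase inhibitor Y-27632. State therefore cannot be told apart from medium, attachment and the inhibitor, and the labels name no engineered change in either line. The labels call the arrays of a group biological replicates without naming the cultures, so p-values measure the spread between these arrays.

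Most of these genes encode C2H2 zinc finger proteins, in which a row of fingers, each holding a zinc ion, reads a stretch of DNA. Many also carry a KRAB domain, which binds the co-repressor TRIM28 and, through it, enzymes that place repressive histone and DNA marks. The genes lie on the chromosome in tandem runs that grew by repeated duplication. KRAB zinc finger proteins are known in pluripotent cells for silencing transposable elements and for keeping imprinted regions methylated.

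The 5 measured of 7 markers of pluripotent cells were above the array median on all arrays, and their summed intensity was 88963 to 97244 in undifferentiated cells and 71609 to 87195 in EB. The summed intensity of 7 early endoderm markers was 855 to 1044 in undifferentiated cells and 28035 to 42174 in EB. The 4 neural markers summed to 636 to 1208 and 8485 to 10717. The 4 mesoderm and amnion markers summed to 364 to 514 and 4826 to 6477, and the 4 fibroblast markers to 10574 to 13704 and 17785 to 22542. The 2 measured of 3 blood markers summed to 71.6 to 123 over all arrays. On both arrays labelled H9 EB, 5 genes that were dim in undifferentiated H9 and clear in H1 (CRYZ, CXCL11, TRIM61, TYW3 and ZNF680) stood at 18.4% to 31.6% of their H1 EB signal. These percentages are counted above the level of undifferentiated H9, and the limits that pick out the 5 were written with the pattern in view. Labels and data disagreed for 2 of the 8 arrays when the identity of the cells was checked. Whether the arrays labelled H9 EB also hold H1 RNA was not tested, and it bears on every value from them. The main counts of EB changes are also given from H1 alone. The EB changes in H9, the line differences in EB and the differences of the EB change have no version without those arrays.

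Many genes of the run that holds ZNF681 share sequence with it before their start sites, which a few windows show. RefSeq windows of 300 bases around the annotated starts (250 before and 50 after) matched 188 members. The windows below give the 150 bases before the start of ZNF681 and of 3 relatives from its own run, and of ZNF224 from another run. They are from build GRCh38.p14, written 5′ to 3′ on the gene's strand, and capitals mark 2 short words on either strand. The first word is CCAAT (read as ATTGG on the opposite strand). The second is ACTACA, or TGTAGT when read on the opposite strand.
ZNF681, chr19:23758892-23759041, minus strand: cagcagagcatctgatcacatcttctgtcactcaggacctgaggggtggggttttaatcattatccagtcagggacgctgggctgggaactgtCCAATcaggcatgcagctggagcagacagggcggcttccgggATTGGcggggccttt
ZNF431, chr19:21141890-21142039, plus strand: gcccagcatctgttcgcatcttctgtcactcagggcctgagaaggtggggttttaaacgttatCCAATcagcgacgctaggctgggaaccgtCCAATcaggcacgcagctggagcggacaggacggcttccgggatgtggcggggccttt
ZNF430, chr19:21020507-21020656, plus strand: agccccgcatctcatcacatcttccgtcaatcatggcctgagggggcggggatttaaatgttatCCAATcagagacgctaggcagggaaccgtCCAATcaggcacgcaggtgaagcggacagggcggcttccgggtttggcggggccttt
ZNF91, chr19:23395472-23395621, minus strand: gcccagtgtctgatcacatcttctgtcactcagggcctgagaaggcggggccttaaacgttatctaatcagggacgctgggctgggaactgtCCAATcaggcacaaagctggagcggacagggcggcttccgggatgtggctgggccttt
ZNF224, chr19:44094211-44094360, plus strand: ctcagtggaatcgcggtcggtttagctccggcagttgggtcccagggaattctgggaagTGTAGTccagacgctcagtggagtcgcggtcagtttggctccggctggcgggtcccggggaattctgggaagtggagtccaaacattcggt

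The 250 bases before the start of ZNF681 were identical to those of ZNF431 at 210 positions (84.0%) in a global alignment with free end gaps. They were 82.8% identical to ZNF430, 82.4% to ZNF257 and 80.8% to ZNF91. Among the other 21 matched genes of the same run, 15 reached 75%, and among 166 matched members elsewhere 0 did, with a highest value of 60.4%. The aligned stretch of ZNF681 held 4 CG pairs in the 150 bases shown, against 10 in ZNF431, 10 in ZNF430 and 6 in ZNF91.

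CCAAT on either strand was present in 113 of the 236 windows of members (47.9%) and in 34.6% of all 35116 windows of the table. ACTACA on either strand was present in 66 of the member windows (28.0%) and in 8.46% of all windows. TATAAA on either strand was present in 2.12% and 11.5%. These words were chosen after the sequences were seen, and the first and second word can share at most 1 letter where they meet. The shares of the words varied between runs. CCAAT stood in 22 of 23 windows of the run from ZNF101 to ZNF254 and in 18 of 20 of that from ZNF653 to ZNF791, and ACTACA in 0 of both. In the run from ZNF283 to ZNF180, ACTACA stood in 14 of 18 windows and CCAAT in 5. The run from ZNF264 to ZNF446 held CCAAT in 26 of 41 windows, ACTACA in 22 and both in 17, and that from ZNF577 to ZNF331 held CCAAT in 9 of 37 and ACTACA in 3. A match describes letters in a window and is not a binding site.

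The values are MAS5 intensities on a linear scale, without a unit, and the arrays' medians lay between 68.7 and 86.0. A gene was tested when its probe set was above the median of its own array on at least 2 of 8 arrays. Of the 220 members 190 were tested, 161 of them above the median on all 8 arrays. The other 30 were too dim, 26 of them below the median on every array, among them ZNF208, ZNF257, ZNF417, ZNF492 and ZNF808. Dim means below the array's median on every array of a group, and no level is read from such values. Probe sets of 70 members are of types that can cross-hybridise with related transcripts, and 7 members are annotated as pseudogenes. Differences are given as log2(intensity + 16), which understates those of dim genes, each with the standard error (SE) of a limma fit on 14056 genes with 2 arrays per group. A member was called when its p, adjusted by Benjamini-Hochberg over all 14056, was under 0.05.

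About as many chromosome 19 zinc finger genes changed between EB and undifferentiated cells as did not, mostly by small amounts. Averaged over the lines, 61 of 190 members rose in EB (32.1%, with 35.4% of all tested genes) and 38 fell (20% of members, with 33.1% of all). In all 99 members changed (52.1%), beside 68.5% of all tested genes and 139 of 222 ZNF genes on other chromosomes (62.6%). The difference between these shares was not tested. A change in RNA per cell and a change in the mix of cells cannot be told apart in these bulk samples. Changes of at least 1 on the log2 scale were found in 9 members upward (4.74%, beside 10.2% of all) and 2 downward (1.05%, beside 3.61%). The median absolute change was 0.26 in the members, 0.30 in the other ZNF genes and 0.36 in all tested genes.

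Which direction prevailed depended on how the arrays were scaled. The members' median change was 0.10 on the log2 scale, the other ZNF genes' 0.087 and that of all genes 0.010. With quantile normalization 39 members rose (20.5%, beside 31% of all tested genes) and 60 fell (31.6%, beside 36.7%), and the median was −0.056 beside −0.055 for all genes. With each array centred on its median, 33 rose (17.4%, beside 24.7%) and 73 fell (38.4%, beside 46.8%), and the median was −0.095 beside −0.19 for all genes. In both lines EB arrays did not overlap undifferentiated ones for 52 members that were higher (27.4%, beside 30.5% of all) and 29 that were lower (15.3%, beside 27.8%). Without the arrays labelled H9 EB, the comparison within H1 gave 40 members higher (21.1%, beside 28.7%) and 28 lower (14.7%, beside 27.9%). Of these, 35 and 23 were among those called from all arrays. That fit, called H1 alone here, keeps the undifferentiated H9 arrays in its estimate of spread.

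ZNF536, a zinc finger repressor of developing neurons that has no KRAB domain, showed the largest rise. Its intensities were 19.4 and 39.7 in undifferentiated H1, 18.1 and 23.6 in undifferentiated H9, 253 and 308 in H1 EB and 236 and 324 on the arrays labelled H9 EB. All 4 undifferentiated arrays were dim and all 4 EB arrays were far above them. ZNF536 thus passed the filter through its EB arrays alone, and its p-value is not independent of that filter. The rise was at least 3.88-fold averaged over the lines (2.86 ± 0.20 on the log2 scale, SE, limma adjusted p = 1.99e-07).

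ZNF91, which silences SVA retrotransposons in primate pluripotent cells, rose 2.31-fold. It read 937 and 919 in undifferentiated H1, 928 and 900 in undifferentiated H9, 1885 and 1989 in H1 EB and 2272 and 2516 on the arrays labelled H9 EB. The undifferentiated groups overlapped each other, and all EB arrays were higher (1.21 ± 0.051, SE, limma adjusted p = 4.02e-09). The gene has 7 probe sets, and a second one well above the median on all arrays changed by only 0.10 on the log2 scale. With its probe sets averaged the change was 0.23, with a limma adjusted p of 0.107.

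ZNF432, a KRAB zinc finger gene of the run from ZNF577 to ZNF331, rose 2.28-fold. Its intensities were 704 and 622 in undifferentiated H1, 516 and 469 in undifferentiated H9, 1346 and 1379 in H1 EB and 1221 and 1344 on the arrays labelled H9 EB (1.19 ± 0.066, SE, limma adjusted p = 3.45e-08). The pseudogene ZNF702P of the same run read 170 to 214 on the 4 undifferentiated arrays, 517 and 571 in H1 EB and 432 and 386 on the arrays labelled H9 EB. Its rise was 2.30-fold (1.20 ± 0.095, SE, limma adjusted p = 6.12e-07). Neither gene's EB arrays overlapped its undifferentiated arrays in either line.

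Rises of more than 1 on the log2 scale were also called for ZNF428, ZNF446 and ZNF224. ZNF428 read 186 to 291 on the undifferentiated arrays and 529 to 653 on the EB arrays (1.17 ± 0.11, SE, limma adjusted p = 1.96e-06). A dimmer ZNF428 probe set without cross-hybridising type changed by 0.055, with a limma adjusted p of 0.873. ZNF446 read 54.9 to 112 in undifferentiated cells and 163 to 320 in EB, and its second probe set rose as well. ZNF224, known as a repressor of the aldolase A gene, read 130 to 197 and 291 to 402 (1.04 ± 0.11, SE, limma adjusted p = 9.60e-06). It lies outside the rule for named genes and was chosen after its values were seen.

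A pair of genes was dim in all undifferentiated cells. Each was above the median on 3 arrays, all EB, and so passed the filter only through the state where it is high. Their p-values are not independent of that filter. ZNF471 read 23.3 to 45.9 there and 78.7 to 102 in EB, a rise of at least 1.27-fold with a limma adjusted p of 0.00125. ZNF324 read 15.9 to 64.5 there, 123 and 72.7 in H1 EB and 145 and 165 on the arrays labelled H9 EB. Its rise was at least 1.69-fold with a limma adjusted p of 1.32e-04. In H1 alone the ZNF324 change was 0.53 on the log2 scale with a limma adjusted p of 0.208, so its call needs the arrays labelled H9 EB.

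The largest falls were of genes with clear signals in undifferentiated cells of both lines. ZNF57 read 880 and 904 in undifferentiated H1, 895 and 926 in undifferentiated H9, 405 and 428 in H1 EB and 427 and 419 on the arrays labelled H9 EB. It fell 2.10-fold, with no overlap between states (−1.07 ± 0.062, SE, limma adjusted p = 5.11e-08). ZNF581 read 2042 to 2305 in undifferentiated cells and 1019 to 1183 in EB (−1.02 ± 0.061, SE, limma adjusted p = 6.80e-08). ZNF101 read 2563 to 2762 and 1285 to 1631 (−0.88 ± 0.047, SE, limma adjusted p = 2.49e-08). Its other 2 probe sets fell by 0.66 and 0.98. The pseudogene ZNF788P read 1285 to 1463 and 724 to 818 (−0.77 ± 0.058, SE, limma adjusted p = 3.89e-07).

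Among the 6 members with the brightest probe sets, ZNF121 read 12004 and 13363 in undifferentiated H1, 9854 and 9895 in undifferentiated H9 and 7202 to 7644 on the EB arrays. It fell by 0.58 on the log2 scale (SE 0.041, limma adjusted p = 2.42e-07). ZNF146, whose protein consists of zinc fingers alone, read 7977 to 9190 in undifferentiated cells and 5758 to 6595 in EB (−0.48 ± 0.035, SE, limma adjusted p = 3.32e-07). ZNF738 read 8082 to 9984 and 8148 to 8400, and its small fall of 0.11 turned to a rise of 0.050 with quantile normalization. ZNF585A fell on its brightest probe set (−0.53 ± 0.083, SE, limma adjusted p = 1.66e-04) but 3 dimmer probe sets pointed the other way, and their mean with it rose by 0.21. ZNF121, ZNF146 and the genes of the preceding paragraph fell under both other scalings too.

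**Figure D1:**
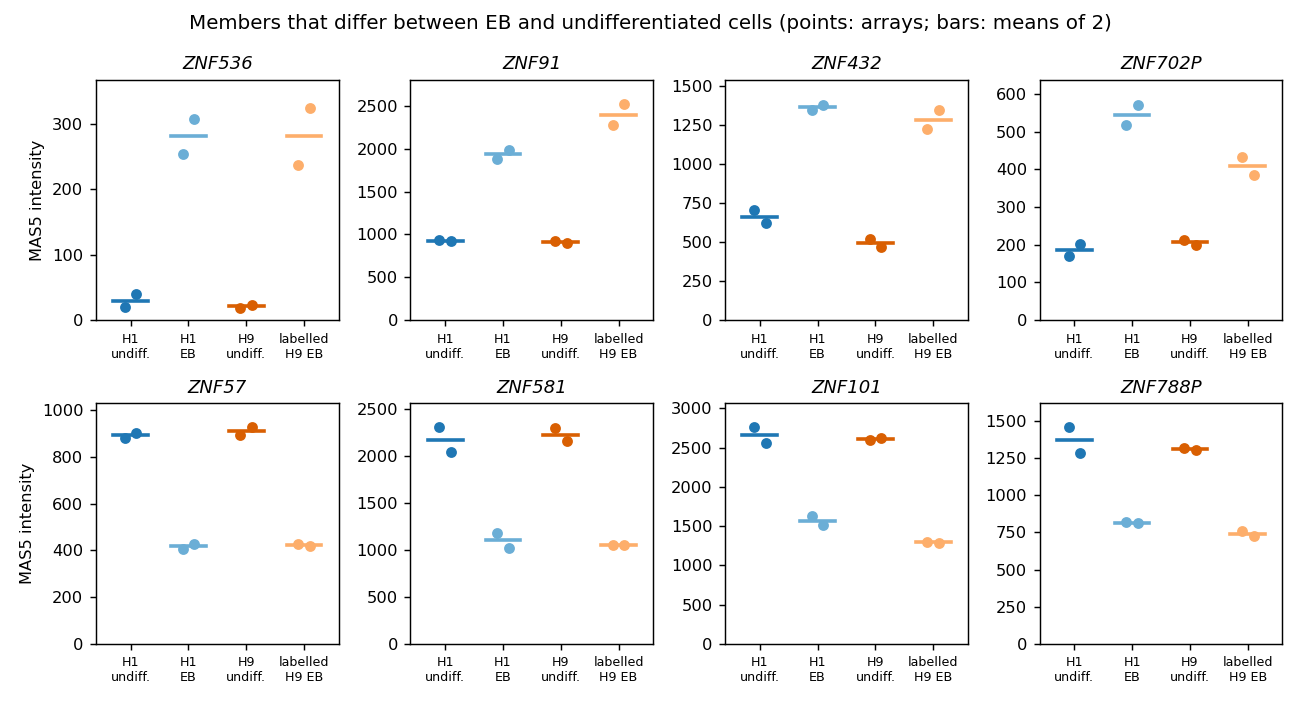
MAS5 intensity (linear axis from 0) of 8 members on every array, points for arrays and bars for the mean of 2. For ZNF536, ZNF91, ZNF432 and ZNF702P every EB point lies above every undifferentiated point, and for ZNF57, ZNF581, ZNF101 and ZNF788P every EB point lies below.

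Genes known to bind transposable elements did not move as one. Of 9 listed, 8 were measured and 6 tested. Of the 6, 3 rose in EB (50%, beside 35.4% of all tested genes) and 2 fell (33.3%, beside 33.1%). Their median was 0.17 on the log2 scale, and with 6 genes these shares were not tested. ZNF91 rose as given above, and ZNF611, which also binds SVA elements, read 802 to 865 in undifferentiated cells and 1340 to 1563 in EB (0.83 ± 0.055, SE, limma adjusted p = 1.44e-07). ZNF587, which binds endogenous retroviruses, read 1453 to 1826 and 2019 to 2258 (0.44 ± 0.069, SE, limma adjusted p = 1.68e-04). ZNF93, which silences a set of LINE-1 elements, read 2052 to 2330 and 1628 to 1867 (−0.34 ± 0.046, SE, limma adjusted p = 4.79e-05). ZNF649 fell by 0.49 and ZNF765 changed by −0.10 with a limma adjusted p of 0.158. The probe sets used for ZNF611, ZNF587, ZNF93 and ZNF765 are of types that can cross-hybridise. The 3 rises and the falls of ZNF93 and ZNF649 had the same direction and call under both other scalings and in H1 alone. The ZNF93 call was lost (limma adjusted p = 0.259) with its only probe set without a letter suffix, which was above the median on 3 arrays. ZNF417 and ZNF808 were not tested, being dim.

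ZNF274, which brings SETDB1 to the 3′ ends of zinc finger genes, changed by 0.14 with a limma adjusted p of 0.0753. Its dimmer second probe set rose by 0.61 (limma adjusted p = 8.58e-04), and over all alternatives the adjusted p ran up to 0.428. ZNF331, an imprinted gene, rose by 0.32 (limma adjusted p = 0.00228), a call lost with centred arrays (limma adjusted p = 0.157). ZNF296, above the median on 5 arrays, changed by −0.45 and was not called (limma adjusted p = 0.0995). It was called lower with quantile normalization (limma adjusted p = 0.0283) and with centred arrays (limma adjusted p = 0.0236).

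Partners of KRAB zinc finger proteins changed in both directions. Of 24 listed genes 23 were tested, and 7 rose (30.4%, beside 35.4% of all tested genes) while 12 fell (52.2%, beside 33.1%; median −0.10). With quantile normalization 7 rose and 9 fell (39.1%, beside 36.7% of all), with centred arrays 3 and 16 (69.6%, beside 46.8%), and in H1 alone 4 and 9 (39.1%, beside 27.9%). These shares were not tested against each other. TRIM28, the co-repressor bound by KRAB, read 5054 and 5276 in undifferentiated H1, 4693 and 4711 in undifferentiated H9, 3534 and 3540 in H1 EB and 3715 and 3697 on the arrays labelled H9 EB. It fell by 0.44 without overlap (SE 0.035, limma adjusted p = 6.62e-07), and MORC2, an ATPase of the HUSH silencing pathway, fell by 0.57 (SE 0.045, limma adjusted p = 6.34e-07). SETDB1, the histone H3 lysine methyltransferase recruited by TRIM28, rose by 0.25 (limma adjusted p = 0.00593), a call lost with quantile normalization (limma adjusted p = 0.0965) and with centred arrays (limma adjusted p = 0.497). UHRF1, a factor of DNA methylation maintenance, rose by 0.41 (SE 0.041, limma adjusted p = 4.08e-06). ATRX rose by 0.50 (SE 0.050, limma adjusted p = 3.88e-06), but in H1 alone its change was 0.14 and not called (limma adjusted p = 0.119).

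The changes were placed along the chromosome by runs, a run being 5 or more ZNF genes with at most 5 other protein-coding genes between neighbours. There were 11 runs, and 19 tested members lay outside them. The counts below are descriptions without a test of the difference between runs. They are to be read beside the 35.4% of all tested genes that rose and the 33.1% that fell. With quantile normalization these shares of all genes were 31% and 36.7%, and with centred arrays 24.7% and 46.8%. In H1 alone they were 28.7% and 27.9%. In the run from ZNF101 to ZNF254, with 42 genes in the table and 27 measured, 3 of 21 tested members rose in EB (14.3%) and 10 fell (47.6%), with a median of −0.12. ZNF91 is one of the 3 that rose. The falls were of 0.11 to 0.88, led by ZNF101, and also took in ZNF93, ZNF708, ZNF253, ZNF675 and ZNF43. In H1 alone 2 rose (9.52%, beside 28.7% of all) and 4 fell (19%, beside 27.9%). With quantile normalization 1 rose and 13 fell (61.9%, beside 36.7%), and with centred arrays 1 and 14 (66.7%, beside 46.8%).

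In the run from ZNF283 to ZNF180, 7 of 18 tested members rose (38.9%, near the share of all genes) and 0 fell, with a median of 0.22. The 7 were ZNF224, ZNF112, ZNF404, ZNF226, ZNF222, ZNF225 and ZNF180, with rises of 0.21 to 1.04. ZNF112 read 250 to 316 in undifferentiated cells and 391 to 590 in EB (0.79 ± 0.11, SE, limma adjusted p = 4.92e-05). With quantile normalization 4 of the 18 rose and 0 fell, with centred arrays 4 rose and 1 fell, and in H1 alone 3 rose and 0 fell.

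In the run from ZNF577 to ZNF331, 13 of 32 tested members rose (40.6%) and 6 fell (18.8%). Their median of 0.16 was 0.0031 with quantile normalization and −0.039 with centred arrays. With quantile normalization 10 rose (31.2%) and 8 fell (25%), and with centred arrays 8 rose (25%) and 11 fell (34.4%). In H1 alone 8 rose (25%) and 3 fell (9.38%). A stretch of neighbours, chosen after its values were seen, held 6 rises among 7 tested members, averaged over the lines. They were ZNF83 by 0.63, ZNF611 by 0.83, ZNF600 by 0.96, ZNF468 by 0.27, ZNF702P by 1.20 and ZNF160 by 0.43. The other, ZNF320, changed by −0.19 (limma adjusted p = 0.229), and ZNF28 was too dim to test. Within single lines, ZNF468 was not called in H9 (−0.16, limma adjusted p = 0.184), nor ZNF160 in H1 (0.23, limma adjusted p = 0.135). ZNF600 read 492 to 568 in undifferentiated cells and 881 to 1263 in EB (0.96 ± 0.069, SE, limma adjusted p = 2.99e-07). The probe sets of ZNF83, ZNF611, ZNF600 and ZNF160 are of types that can cross-hybridise, so the 4 readings may share transcripts. In the run from ZNF542P to ZNF835, 4 of 7 rose and 0 fell (median 0.43), and the median was 0.25 with quantile normalization and 0.23 with centred arrays.

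The other runs held both directions or few tested genes. From ZNF653 to ZNF791, 7 of 18 rose (38.9%) and 1 fell (5.56%). With centred arrays 2 rose (11.1%, beside 24.7% of all genes) and 5 fell (27.8%, beside 46.8%). From ZNF565 to ZNF573, 8 of 22 rose and 3 fell, and from ZNF264 to ZNF446, 11 of 33 rose and 9 fell. With centred arrays the former gave 3 rises (13.6%) and 5 falls (22.7%), and the latter 8 (24.2%) and 15 (45.5%). These shares too stand beside 24.7% and 46.8% of all genes. The remaining 4 runs, with 20 tested members between them, gave 4 rises and 6 falls. Of these, the run from ZNF628 to ZNF580 depended most on scaling. It gave 1 rise and 1 fall among 6 tested members, but 0 rises and 5 falls (83.3%) under both other scalings. Of all genes 36.7% fell with quantile normalization and 46.8% with centred arrays. In H1 alone that run gave 0 rises and 1 fall. Windows with CCAAT were 38.6% in the members that rose in EB, 62.9% in those that fell and 47.8% in those not called. These shares follow the runs as well, and were not tested.

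**Figure D2:**
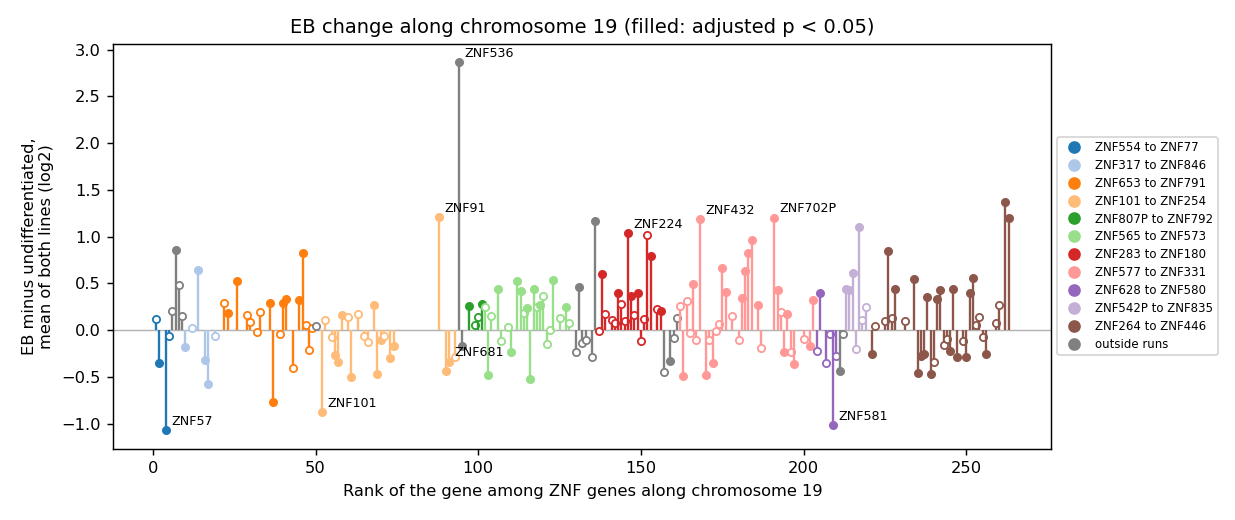
Log2 change in EB, averaged over the lines, of the tested members against their order along chromosome 19 (order only, not distance), with runs marked. Both directions occur along the whole order, and the highest point is ZNF536 at 2.86, outside the runs.

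Undifferentiated H9 and H1 differed in 39 of 190 members (20.5%, beside 26.2% of all tested genes). Of these 22 were higher in H9 (11.6%, beside 13.7%) and 17 lower (8.95%, beside 12.5%). Differences of at least 1 on the log2 scale were 3 higher in H9 and 3 lower, beside 0.96% and 1.91% of all genes. Without the arrays labelled H9 EB the counts were 20 and 18. Where a gene's probe sets were averaged instead, 12 were higher and 13 lower.

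ZNF681 differed most between the lines. Its intensities were 91.5 and 128 in undifferentiated H1, 120 and 108 in H1 EB, 748 and 725 in undifferentiated H9 and 433 and 440 on the arrays labelled H9 EB. The means were 110 ± 25.9 (SD, n = 2) in undifferentiated H1 and 737 ± 16.9 in undifferentiated H9. All H9 arrays were above all H1 arrays, which were above the array medians but close to them. H9 was 6.04-fold higher in undifferentiated cells (2.60 ± 0.16, SE, limma adjusted p = 1.54e-06) and 3.49-fold higher in EB (1.80 ± 0.16, SE, limma adjusted p = 8.36e-05). The direction and call of both differences held in every alternative that could be fitted. The second ZNF681 probe set was dim on all arrays, reading 26.7 to 37.1 in H1 and 43.3 to 62.9 in H9.

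In H1, ZNF681 changed in EB by 0.06 on the log2 scale (SE 0.16, limma adjusted p = 0.762). In H9 it fell by 0.73 (SE 0.16, limma adjusted p = 0.00191). The difference between these changes was −0.79 (SE 0.22, limma adjusted p = 0.0266), a call lost in 7 of 18 alternatives with adjusted p from 0.00976 to 0.186. The fall in H9 and this difference both use the arrays labelled H9 EB.

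Of the 15 genes that matched ZNF681 at 75% or more before the start site, 11 were tested, and their differences between undifferentiated H9 and H1 ran from −0.68 to 0.50. None of the 11 was called higher in H9, and 1, ZNF100, was called lower. ZNF431 differed by −0.28, ZNF430 by −0.21, ZNF91 by −0.02 and ZNF486 by 0.50, none of them called. ZNF826P, a pseudogene of the same run, read 428 and 441 in undifferentiated H1, 379 and 393 in H1 EB, 1070 and 980 in undifferentiated H9 and 653 and 495 on the arrays labelled H9 EB. It was 2.31-fold higher in undifferentiated H9 (1.21 ± 0.13, SE, limma adjusted p = 6.71e-05). Of the 21 tested members of the run, 5 were higher in undifferentiated H9, namely ZNF681, ZNF826P, ZNF682, ZNF506 and ZNF738, and ZNF100 and ZNF708 were lower. Beside this, 13.7% of all tested genes were higher and 12.5% lower, and the difference was not tested. ZNF100 read 280 and 323 in undifferentiated H1 and 187 and 176 in undifferentiated H9 (−0.68 ± 0.15, SE, limma adjusted p = 0.00767).

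The members whose log2 values over the 8 arrays were most like those of ZNF681 were ZNF439 (Pearson r = 0.958), ZNF826P (0.907), ZNF506 (0.905), ZNF574 (0.848) and ZNF567 (0.838). Among other tested genes MORF4L2 on chromosome X (0.996), WDR72 on chromosome 15 (0.994), ZNF717 on chromosome 3 (0.993), ELP5 on chromosome 17 (0.991) and KLHL15 on chromosome X (0.990) came first. The 8 arrays fall into 4 groups, so these are descriptions of a pattern over groups.

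Further genes were higher in undifferentiated H9. ZNF677, a KRAB zinc finger gene, read 1713 and 1589 in undifferentiated H1, 1723 and 1740 in H1 EB, 3352 and 3101 in undifferentiated H9 and 1838 and 1887 on the arrays labelled H9 EB. The difference in undifferentiated cells was 1.95-fold (0.96 ± 0.066, SE, limma adjusted p = 3.52e-06), and in EB it was 0.10 with a limma adjusted p of 0.328. ZNF439 read 62.8 and 76.5 in undifferentiated H1 and 168 and 164 in undifferentiated H9 (1.09 ± 0.20, SE, limma adjusted p = 0.00234). ZNF823 read 185 and 178 in undifferentiated H1 and 322 and 329 in undifferentiated H9 (0.79 ± 0.14, SE, limma adjusted p = 0.00238). ZNF439 and ZNF823 lie in the run from ZNF653 to ZNF791, where 6 of 18 tested members were higher in H9 and 2 lower. Of all tested genes 13.7% were higher and 12.5% lower, and the run was not tested against these shares. ZNF557, dim in undifferentiated H1 at 61.4 and 40.3, read 110 and 89.1 in undifferentiated H9. That is at least 1.34-fold higher (limma adjusted p = 0.0417), a call lost in 11 of 18 alternatives with adjusted p from 0.0244 to 0.531.

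Among genes lower in undifferentiated H9, ZNF578 read 170 and 128 in undifferentiated H1 and was dim in undifferentiated H9 at 31.3 and 16.8. It was at least 2.12-fold lower (−2.06 ± 0.32, SE, limma adjusted p = 0.00109), and a second, mostly dim probe set differed by −1.86. ZNF578 passed the filter through H1 arrays alone, so its p-value is not independent of that filter. ZNF350, also named ZBRK1, a KRAB repressor that binds BRCA1, read 405 and 369 in undifferentiated H1 and 146 and 197 in undifferentiated H9 (−1.12 ± 0.16, SE, limma adjusted p = 6.18e-04). With the mean of its probe sets the call was lost (limma adjusted p = 0.0914). ZNF542P read 927 and 958 against 543 and 449 in undifferentiated cells, and 1341 and 1203 against 663 and 706 in EB. It was thus lower in H9 in both states (−0.91 ± 0.10, SE, limma adjusted p = 1.25e-04 and −0.88, limma adjusted p = 5.48e-04). ZNF649 read 852 and 933 against 515 and 562 in undifferentiated cells (−0.71 ± 0.10, SE, limma adjusted p = 5.67e-04) and was lower in EB too (−0.41, limma adjusted p = 0.0211). ZNF324 was called lower as well (limma adjusted p = 0.0237), but it was dim in both undifferentiated groups and has no fold here.

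**Figure D3:**
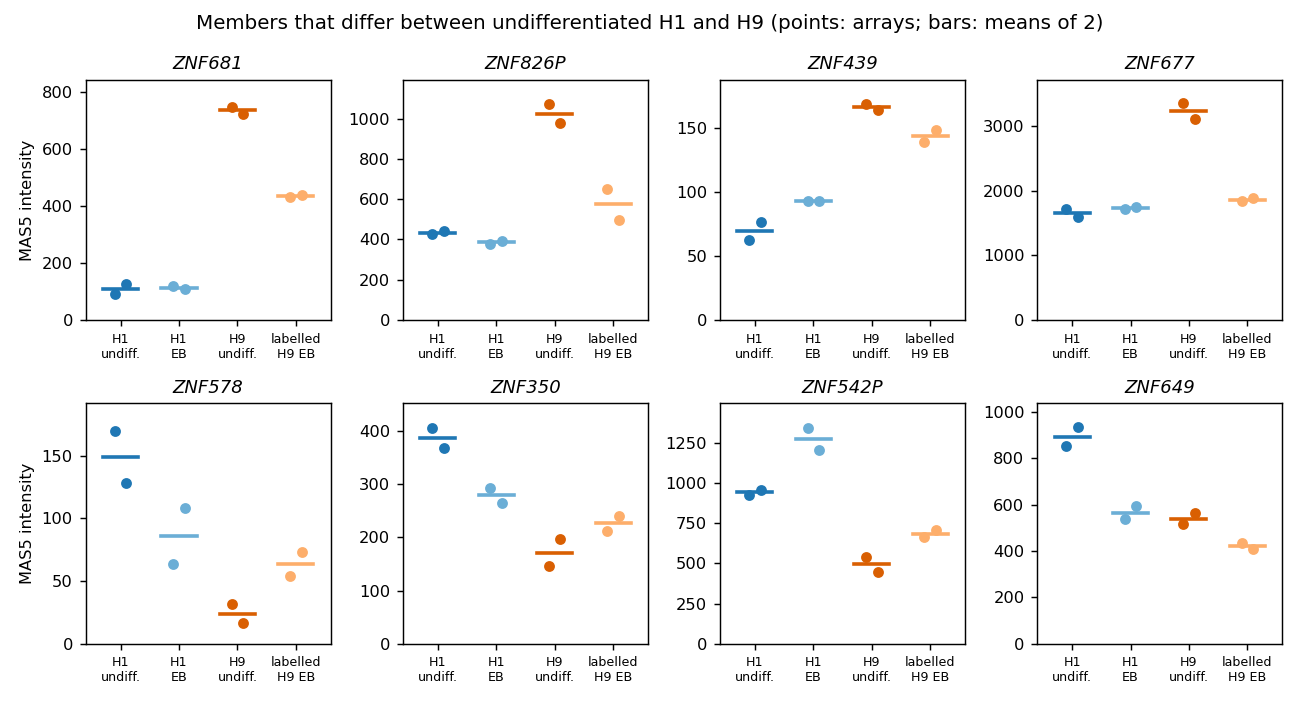
MAS5 intensity (linear axis from 0) on every array of 8 members that differed between the undifferentiated lines, points for arrays and bars for the mean of 2. ZNF681 stays near 110 on the H1 arrays of both states and stands at 433 to 748 on the H9 arrays, and the H9 EB points of ZNF677 lie near the H1 points.

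In EB the lines differed in 18 members (9.47%, beside 15.3% of all tested genes), 6 higher (3.16%, beside 8%) and 12 lower (6.32%, beside 7.31%) on the arrays labelled H9 EB. ZNF681 alone differed by at least 1 on the log2 scale, beside 0.413% of all genes higher by as much. Of the 39 members that differed in undifferentiated cells, 5 differed the same way in EB, namely ZNF542P, ZNF649, ZNF681, ZNF708 and ZNF826P. A second ZNF826P probe set, of a type that can cross-hybridise, went the other way in EB, with 410 and 449 in H1 and 246 and 230 on the arrays labelled H9 EB. ZNF627 was higher in undifferentiated H9 by 0.33 and lower in EB by 0.29, and ZNF682 higher by 0.56 and lower by 0.26. Every one of these EB comparisons uses the arrays labelled H9 EB, whose partial H1 signal for other genes is given above. Its part in the smaller number of calls in EB was not tested.

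Within each line, in the fit on all 8 arrays, 74 members changed in H1 EB (44 higher and 30 lower, beside 57.7% of all genes, 29.6% higher and 28.1% lower). In H9 EB as labelled 86 changed (50 higher and 36 lower, beside 60.6%, 31.6% higher and 29% lower). Of the 190 members 25 rose in both lines, 14 fell in both, 33 were called in H1 only, 45 in H9 only and 71 in neither. A call in 1 line only is not a tested difference. The same split was not counted over all tested genes, so it is not read as particular to the members. ZNF682 and ZNF329 were called in opposite directions, and ZNF682 rose by 0.57 in H1 and fell by 0.25 in H9. The difference of the EB change between lines was itself called for 32 members (16.8%, beside 22.7% of all genes), 12 with a more positive change in H9 (6.32%, beside 11.5%) and 20 with a more negative one (10.5%, beside 11.2%). All 32 use the arrays labelled H9 EB.

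Among the called members ZNF823 had the most negative difference. It read 185 and 178 in undifferentiated H1, 367 and 437 in H1 EB, 322 and 329 in undifferentiated H9 and 287 and 351 on the arrays labelled H9 EB, so that it rose in H1 alone (difference −1.11 ± 0.20, SE, limma adjusted p = 0.00321). ZNF616 read 488 to 522 on all H1 arrays, 555 and 562 in undifferentiated H9 and 295 and 270 on the arrays labelled H9 EB (−0.92 ± 0.15, SE, limma adjusted p = 0.00164). A second ZNF616 probe set, above the median on all arrays, did not show this. It read 372 and 406, then 252 and 216 in H1, and 286 and 322, then 198 and 260 in H9. ZNF468 read 632 and 636, then 1063 and 1012 in H1, and 897 and 956, then 753 and 911 in H9 (−0.85 ± 0.14, SE, limma adjusted p = 0.00186). The difference for ZNF677 was −0.86 (SE 0.093, limma adjusted p = 1.86e-04).

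ZNF880 read 414 and 370 in undifferentiated H1, 520 and 422 in H1 EB, 360 and 346 in undifferentiated H9 and 757 and 765 on the arrays labelled H9 EB. Its change was more positive in H9 (0.83 ± 0.17, SE, limma adjusted p = 0.00612). A second ZNF880 probe set, above the median on all arrays, did not rise in H9. That one read 294 and 292, then 265 and 228 in H1, and 271 and 214, then 255 and 245 in H9. ZNF578 read 170 and 128 in undifferentiated H1 and 63.9 and 108 in H1 EB, a change that was not called (limma adjusted p = 0.0782). It was dim on all 4 H9 arrays, so its called difference of the EB change (limma adjusted p = 0.0205) is not read as a size. ZNF350 read 293 and 264 in H1 EB and 212 and 240 on the arrays labelled H9 EB (0.83 ± 0.23, SE, limma adjusted p = 0.0233). Of these differences, the ZNF578 call was lost in 4 of 17 alternatives and the ZNF350 call in 5 of 18. The calls of ZNF616, ZNF677 and ZNF880 were lost in 1 of 18 each, with probe sets averaged, at adjusted p of 0.192, 0.197 and 0.0561. Those of ZNF823 and ZNF468, each with 1 probe set, were kept in all 18. On the brightest probe sets of ZNF350 and ZNF677 the arrays of the lines lay closer together in EB than in undifferentiated cells.

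**Figure D4:**
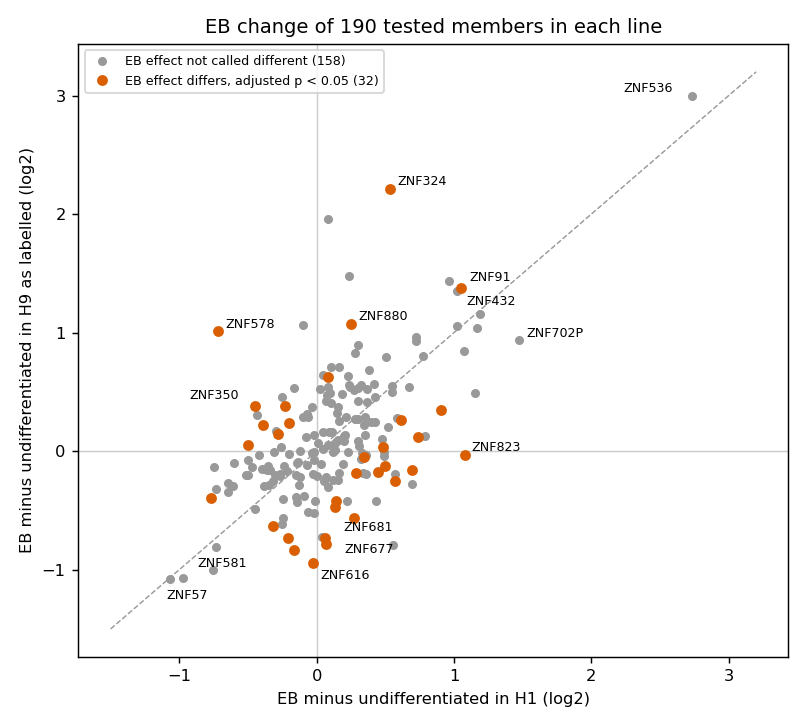
Log2 change in EB of the 190 tested members in H9 as labelled (vertical) against H1 (horizontal), with the line of equal change dashed and the 32 members whose change differed between lines coloured. ZNF536 lies high in both lines, ZNF823 lies to the right near 0 on the vertical axis, and ZNF616, ZNF677 and ZNF681 lie below 0 there with little change in H1.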

How the data were processed

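Labelled RNA of 8 samples (2 lines, 2 states, 2 arrays each) was measured on Affymetrix U133 Plus 2.0 arrays. The authors deposited MAS5 intensities on a linear scale, per the submitters' processing notes, and their MAS5 version is not given in the sources used here. Every array had a mean of 500.1 after trimming 2% at each end, so the arrays share 1 target. Low MAS5 values are noisy because mismatch signal is subtracted. Detection calls were not used here.

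Of 54675 probe sets 41091 carried 1 gene symbol, 1801 several and 11721 none, and 62 were controls. Probe sets with several symbols named no gene, which leaves out 62 that include a ZNF symbol. Each gene took its single-symbol probe set with the highest mean. Values were transformed as log2(intensity + 16) and fitted with limma 3.58.1 in R 4.3.3 (4 group means, eBayes with trend and robust, 4 residual degrees of freedom), with Benjamini-Hochberg adjustment over 14056 genes. Tested on simulated data of that size for the mean EB comparison, 55 of 67 changes of 0.5, 63 of 67 of 1 and 66 of 66 of 2 (log2) were recovered with 8 false calls. These counts were split by size of change alone, and the rate for dim genes was not tested. The number of arrays limits the precision.

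A fold "at least N" divides the bright group's mean by the dim group's, each dim value being raised to its array's median where it lay below. Named genes were ZNF681, the 8 largest EB changes per direction without overlap between states in either line, the 6 largest differences between undifferentiated lines and the 4 largest differences of the EB change per direction, the 6 brightest members, and the listed transposable element binders with ZNF274, ZNF331 and ZNF296. Of the KRAB partners they were TRIM28, SETDB1 and the 4 with the smallest p in the mean EB comparison. Others were chosen after their values were seen. Alternatives were other scalings, pseudocounts, filters, probe set rules, moderation, a replicate block, and leaving out arrays. The members and lists were chosen with earlier results of these data known. Gene names, order and start windows came from RefSeq on GRCh38.p14. A description by protein sequence was planned but not made here.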

Additional observations from a re-analysis of the deposited data

Results flagged for a closer look

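The results below were picked out because the EB change differed between the lines by the fit's own test of the difference. Values are the H9 change minus the H1 change on the log2 scale, all use the arrays labelled H9 EB, and no cause was tested. Positive differences were 1.73 for ZNF578, 1.68 for ZNF324, 0.83 for ZNF350, 0.83 for ZNF880, 0.38 for ZNF121 and 0.32 for ZNF91. Negative differences were −1.11 for ZNF823, −0.92 for ZNF616, −0.86 for ZNF677, −0.85 for ZNF468, −0.79 for ZNF681, −0.67 for ZNF826P, −0.62 for ZNF627 and −0.31 for ZNF146. Of the KRAB partners, ATRX gave 0.73 and MORC2 −0.33. ZNF324 was dim in both undifferentiated groups and ZNF578 in both H9 groups, so their differences are fitted values and not sizes. The ZNF324 call was lost in 2 of 16 alternatives (limma adjusted p up to 0.068) and the ZNF578 call in 4 of 17.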

How the results depend on the processing

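Counts of called members stayed within 1.5 times under most alternatives. With the mean of probe sets, calls between undifferentiated lines went from 39 to 25, between lines in EB from 18 to 10, and of the difference of the EB change from 32 to 13, and with probe sets without a letter suffix the last was 21. Without trend and robust moderation 9 members differed between lines in EB. The members' median EB change of 0.10 turned to −0.095 with centred arrays and −0.056 with quantile normalization. Leaving out 1 array at a time gave 81 to 93 members for the mean EB change (99 with all arrays), 54 to 75 in H1, 62 to 84 in H9, 28 to 38 between undifferentiated lines, 6 to 22 between lines in EB, 18 to 30 for the difference of the EB change, and medians of 0.078 to 0.12. Between lines in EB the count was 6 or 9 without either H1 EB array and 7 or 11 without either H9 EB array. The difference of the EB change gave 21 without H1 EB replicate 1 and 18 without H9 EB replicate 2. Without both arrays labelled H9 EB, the mean EB changes of ZNF681 and ZNF677 turned to 0.061 and 0.069. ZNF585A turned to 0.21 and ZNF765 to 0.30 with the mean of probe sets, ZNF738 to 0.050 with quantile normalization and ZNF627 to −0.011 with centred arrays. Of 57 results for named genes, 30 kept direction and call in every alternative that could be fitted. Same-numbered arrays of different groups deviated together at r of −0.046 to 0.054, so the numbers do not pair them, and the replicate block gave 98 members for the mean EB change. Dim members have no level below the array median.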
